A study of Homo sapiens with 16 samples.

Results

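A group of 10 genes of cell survival and death was followed in human kidney organoids: BIRC3, TRAF1, CFLAR, TNFAIP2, TNFAIP8, BCL2L1, FAS, TNFSF10, TNFRSF10B and MLKL. They were chosen by name, as members of the TNF and death receptor pathways, with no threshold on their values but with earlier results of these data known. All 10 were listed in the table of 27650 genes of set 2, in the table of 21093 genes of the TNFα set and in both single-cell matrices of 36601 genes, and 9 of them in the table of 20121 genes of set 1, which does not list MLKL.

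The organoids were grown from UM77-2, an established line of human embryonic stem cells, so that all groups share 1 genetic background and there is no donor replicate. Bulk RNA was measured in untreated organoids on day 21, day 25 and day 29 (D21, D25, D29), with 1 library a day in set 1 and 2 libraries a day in set 2, named Org1 and Org2. A separate TNFα set holds 4 libraries of organoids given 5 ng/ml recombinant TNFα or the vehicle control (VC) for 24 h or 48 h and collected on day 25, 1 library for each treatment and time. That day comes from the methods, which give it for almost all samples of this kind and not for each library. Single-cell RNA was measured on day 24 in 1 VC library and in 1 library given TNFα for 24 h. A bulk library pools spheroids of many cell types, and nothing in the labels says that libraries of one group came from separate cultures. In set 2, p-values therefore measure the spread between these libraries only. In the TNFα set no group has a spread between libraries. Its p-values rest on 1 residual degree of freedom, the departure from added effects of treatment and time, with each gene's spread drawn towards that of other genes.

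As background, TNFα binding its receptor assembles a complex that turns on NF-κB, whose target genes include inhibitors of cell death, while a later complex can activate caspase-8 or, when caspases are blocked, the necroptosis machinery. BIRC3 (cIAP2) and TRAF1 belong to the survival arm at the receptor, CFLAR (cFLIP) holds back caspase-8, and BCL2L1 (Bcl-xL) guards mitochondria. FAS and TNFRSF10B (DR5) are death receptors, TNFSF10 (TRAIL) is the ligand of DR5, and MLKL is the pore-forming executor of necroptosis.

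The sequence just upstream of each start site was searched for the 10-base κB consensus that NF-κB binds and for the core of an interferon-stimulated response element (ISRE: GAAA, any 2 bases, GAAA), on both strands. The motifs were chosen with the sequences and results known. RefSeq windows of 250 bases, matched by symbol, were searched for 9 members, 19 windows in all. No window of TNFRSF10B was searched, so nothing can be said of motifs upstream of this gene. The κB consensus lay in 4 of the 19 windows, those of BIRC3, CFLAR (2 of 4) and FAS (1 of 3), and in 8.19% of 34943 windows over all genes, while the ISRE core lay in the single window of TNFSF10 and in 3.02% of all. The windows of BIRC3 and TNFSF10 are shown because these genes rose with TNFα and hold different motifs. They are given 5′ to 3′ on the gene's strand (GRCh38.p14), BIRC3 from chr11:102317234-102317483 on the plus strand and TNFSF10 from chr3:172523476-172523680 on the minus strand, with matches in capitals.

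BIRC3: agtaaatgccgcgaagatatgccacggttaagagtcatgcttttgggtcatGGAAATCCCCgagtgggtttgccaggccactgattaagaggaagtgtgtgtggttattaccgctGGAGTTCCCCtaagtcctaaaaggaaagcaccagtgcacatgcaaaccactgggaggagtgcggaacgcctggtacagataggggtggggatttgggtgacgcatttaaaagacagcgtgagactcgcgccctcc
TNFSF10: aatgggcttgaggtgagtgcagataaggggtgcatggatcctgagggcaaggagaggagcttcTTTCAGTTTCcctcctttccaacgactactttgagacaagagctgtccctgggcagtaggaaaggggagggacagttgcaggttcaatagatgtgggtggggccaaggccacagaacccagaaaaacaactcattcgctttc

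The κB matches of BIRC3 start 199 and 135 bases before the start site. The run shown for TNFSF10 is 205 bases long and leaves out the bases nearest to the start site. In TNFSF10 the match begins 187 bases before it and reads as GAAACTGAAA on the opposite strand. A match is a run of letters and not an observed binding site, and no match, as in the window of TNFAIP2, says only that these letters are absent from it.

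With TNFα, 7 of the 10 genes were called in bulk RNA (limma, adjusted p under 0.05 over all genes of the table): BIRC3, TNFAIP2, TNFSF10, FAS, TNFRSF10B and TRAF1 rose and BCL2L1 fell. Of all genes tested, 19.3% were called, 8.42% higher and 10.8% lower. The median log2 fold change was 0.61 over the 10 genes and -0.03 over all genes tested. The model held treatment and time, so that 24 h and 48 h stand in for replicates, and an exact permutation test of 2 libraries against 2 could not fall below 0.33. Deposited values are log2(CPM + 1), where CPM is the reads of a gene per 1e6 reads of the library, and fold changes on this scale understate the change of genes with few reads.

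BIRC3, a ubiquitin ligase of the receptor complex, had the largest fold change of the 10. Its values were 0.98 in VC and 4.82 in TNFα at 24 h, and 1.32 and 4.56 at 48 h. Both TNFα libraries stood far above both VC libraries. The log2 fold change was 3.54 ± 0.14 (SE, limma, adjusted p = 3.31e-12). In reads, 52 became 1434 at 24 h and 74 became 1333 at 48 h, a ratio of CPM of 28.5 (95% interval 21.6 to 38.3) and 15.2 (12.01 to 19.5), where the intervals cover counting error only.

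TNFAIP2, a TNF-induced gene whose product shapes membrane protrusions, read 4.21 in VC and 6.85 in TNFα at 24 h, and 4.24 and 6.42 at 48 h. The VC libraries were close to each other, and the TNFα libraries lay above them at both times. The log2 fold change was 2.41 ± 0.09 (SE, limma, adjusted p = 3.23e-12). TRAF1, an adaptor that binds BIRC3 at TNF receptors, moved far less, from 3.46 to 3.93 at 24 h and from 3.44 to 3.86 at 48 h. Its TNFα and VC libraries did not overlap, with a log2 fold change of 0.44 ± 0.10 (SE, limma, adjusted p = 0.00403). The call of TRAF1 was lost without the time term. It was also lost in each fit that left out 1 of the 4 libraries, and these fits held no time term either. Over the alternatives its log2 fold change ranged from 0.4053 to 0.5168.

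Among the death receptors and their ligand, TNFSF10 read 1.18 in VC and 2.65 in TNFα at 24 h, and 1.01 and 2.996 at 48 h. It was the only rising member whose difference was larger at 48 h than at 24 h, and this difference between times has no test. The log2 fold change of TNFSF10 was 1.73 ± 0.14 (SE, limma, adjusted p = 4.79e-08). FAS went from 1.69 to 2.88 at 24 h and from 1.396 to 2.42 at 48 h. The TNFα libraries of FAS were higher at both times, with a log2 fold change of 1.11 ± 0.12 (SE, limma, adjusted p = 2.85e-06). The call of FAS was lost without the TNFα 24 h or the VC 48 h library, in fits that also held no time term. TNFRSF10B, the other death receptor among the 10, went from 7.02 to 7.82 at 24 h and from 6.78 to 7.55 at 48 h. Its rise was nearly equal at both times, 0.78 ± 0.06 on the log2 scale (SE, limma, adjusted p = 4.01e-08), and rested on 5435 to 11798 reads.

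FAS has a caveat of counting. Its annotated exons share 387 bases with those of ACTA2, a smooth muscle actin gene on the opposite strand, and no source used here says whether reads were counted by strand. ACTA2 read 6.54 and 6.43 in VC and 7.49 and 6.79 in TNFα. Its part in the FAS values was not tested. TNFRSF10B likewise shares 377 exon bases with RHOBTB2 on the opposite strand. Overlaps with opposite-strand noncoding genes or pseudogenes were longer, 1899 bases for FAS (a lncRNA), 1735 for BCL2L1 (ABALON), and 1488 and 777 for CFLAR (IMPDH1P10 and CFLAR-AS1), and their part in the counts was not tested.

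The remaining members changed little. BCL2L1 read 6.995 and 6.67 in VC and 6.81 and 6.44 in TNFα. The TNFα 24 h library lay between the VC libraries, so the groups overlapped, and the fall of 0.21 ± 0.06 on the log2 scale (SE, limma, adjusted p = 0.0275) appears only with time in the model. It was not called by edgeR, by DESeq2, without a trend or without the time term. Nor was it called in the fits that left out 1 library, which also held no time term. Its log2 fold change ranged from -0.3925 to -0.0216 over the alternatives. CFLAR read 6.23 and 6.03 in VC against 6.24 and 6.20 in TNFα, with a log2 fold change of 0.09 ± 0.07 (SE, limma, adjusted p = 0.431). TNFAIP8, a regulator of apoptosis named for its induction by TNF, read 3.05 and 3.46 in VC and 3.23 and 3.51 in TNFα (adjusted p = 0.545, limma). MLKL was near the floor at 12 and 13 reads in VC and 26 and 23 in TNFα (adjusted p = 0.180, limma). Its ratio of CPM was 2.24 (1.09 to 4.87) at 24 h and 1.49 (0.725 to 3.21) at 48 h, with intervals of counting error only, and it was not called.

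**Figure D1:**
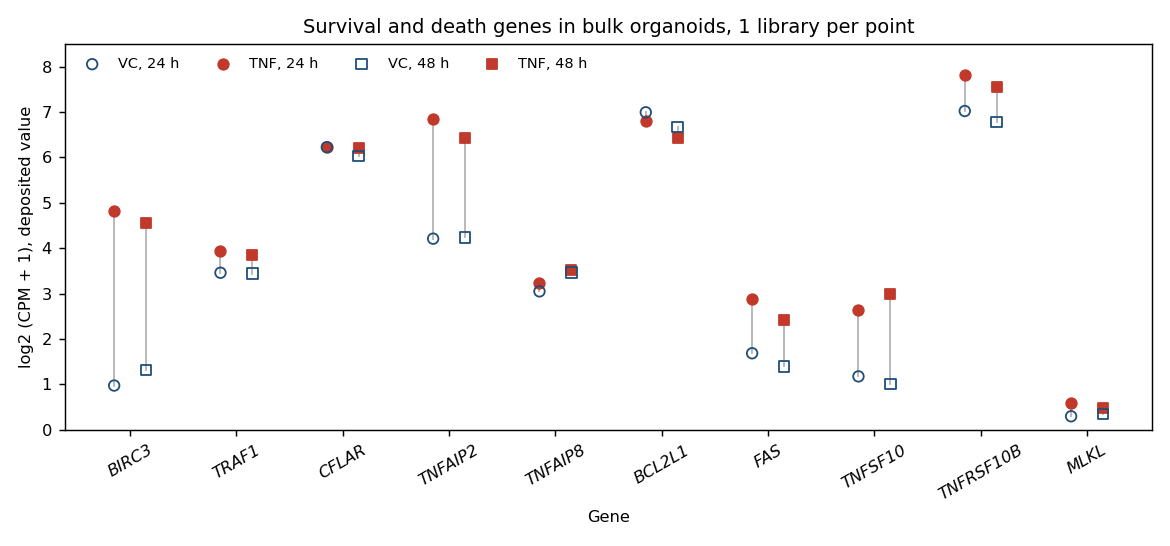
Deposited log2(CPM + 1) of the 10 genes (x axis) in the 4 bulk libraries of the TNFα set; open points are VC, filled points TNFα, circles 24 h and squares 48 h, 1 library a point, with no error bars since there is 1 library each. BIRC3 rose from 0.98 and 1.32 to 4.82 and 4.56, TNFAIP2, TNFSF10, FAS and TNFRSF10B were higher at both times, and the points of CFLAR, TNFAIP8 and MLKL lay close together.

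At each time taken alone, with 1 library against 1 and no test, 5 members (BIRC3, TNFAIP2, TNFSF10, FAS and TNFRSF10B) were more than 1.5-fold higher on the deposited scale, while 3.12% of all genes were at 24 h and 2.92% at 48 h. The same 5 genes passed at both times, and none was 1.5-fold lower, against 3.30% and 2.96% of all genes.

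Scaled by the length of the canonical GENCODE transcript, the order of levels differed between treatments. In VC at 24 h, BCL2L1 had 49.2 CPM per kb, TNFRSF10B 32.3, CFLAR 5.06, TNFAIP2 3.74, TRAF1 2.30, TNFAIP8 1.04, TNFSF10 0.672, FAS 0.6004, BIRC3 0.141 and MLKL 0.0929 CPM per kb. Their order in VC at 48 h was the same. In TNFα at 24 h TNFRSF10B led with 56.2 CPM per kb, followed by BCL2L1 with 43.2 and TNFAIP2 with 24.5, and BIRC3 had moved up to 3.97, above TRAF1 with 3.27 CPM per kb. With 1 library for each level, neighbours such as TNFSF10 and FAS in VC cannot be told apart beyond their spread.

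The wider pathway was described by lists chosen with earlier results of these data known. Of 12 genes of NF-κB feedback, 11 rose, with a median log2 fold change of 1.60, led by TNFAIP3 (A20, 3.29 ± 0.07, adjusted p = 4.00e-15) and RELB (2.87 ± 0.09, adjusted p = 4.22e-13, limma, SE). Of 6 other TRAF genes 4 rose, TRAF3 by 0.96 and TRAF2 by 0.65. In the receptor complex 4 of 15 genes rose and 1 fell, with CYLD, a deubiquitinase that limits NF-κB, up by 0.81. Of 10 other death receptors, ligands and decoys 6 rose, TNF itself by 2.26 and TNFRSF12A, the receptor of TWEAK, by 0.74, and DESeq2 called 4 of them.

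The counts of the next lists are to be read against the 8.42% of all genes called higher and the 10.8% called lower. Of 11 pro-death genes of the BCL2 family 5 rose, and the largest changes were 1.38 for PMAIP1 (NOXA) and 1.32 for BIK. Of 3 survival genes of that family besides BCL2L1, MCL1 alone was called, higher by 0.22. Of 11 adaptors and caspases 3 rose and 1 fell, with BID up by 0.67 and CASP10 by 0.48, where DESeq2 called 1 higher and 0 lower. Of 7 genes of necroptosis and pyroptosis only PELI1 rose, by 0.50. Of 14 p53 target genes 5 rose, CDKN1A by 0.98 and PHLDA3 by 0.77, and 2 fell. In the IAP family and its antagonists limma called 0 of 8 genes, with 0 at an unadjusted p under 0.05. Of these 8, edgeR called 0, with 1 at an unadjusted p under 0.05, and DESeq2 called 0, with 0, so BIRC3 was the sole called gene among the IAPs listed. Of 2 relatives of TNFAIP8, 0 were called by limma, edgeR or DESeq2, with 0 at an unadjusted p under 0.05.

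Fewer cells of a type and less RNA per cell cannot be told apart in bulk libraries. The summed level of 10 podocyte markers was 6895 and 6380 CPM in VC and 4140 and 3026 CPM in TNFα, that of 10 proximal tubule markers 1288 and 1250 against 586 and 636 CPM, and that of 10 stromal markers 6839 and 8364 against 8534 and 8880 CPM. Their part in the values of the 10 genes was not tested. Of 10 leukocyte markers, 4 were listed in the TNFα set, at 7.22 to 14.4 CPM in sum, and the pan-leukocyte gene PTPRC and the macrophage gene CD68 are not listed in the 3 bulk tables.

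In set 2, 8 of the 10 genes were called between D21 and D29: TNFAIP2, TNFSF10, BIRC3, FAS, TNFAIP8 and TRAF1 were higher on D29, and CFLAR and TNFRSF10B were lower. On the deposited log2 scale of set 2 the largest rises were those of TNFAIP2 and TNFSF10. Of all genes tested, 18.4% were called, 10.0% higher and 8.33% lower, and the median log2 fold change was 0.47 over the 10 genes and -0.02 over all. Between D21 and D25 only TNFRSF10B was called, as lower, where 5.37% of all genes were called, 3.39% higher and 1.99% lower. Between D25 and D29 only TNFAIP2 was called, as higher, where 2.08% of all genes were, 1.25% higher and 0.825% lower.

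TNFAIP2 read 3.86 and 3.96 in the D21 libraries, 4.28 and 4.21 in those of D25, and 4.97 and 5.43 in those of D29. The days did not overlap, and most of the rise in set 2 lay after D25, with a log2 fold change of 1.29 ± 0.14 from D21 to D29 (SE, limma, adjusted p = 0.000849) and of 0.96 ± 0.14 from D25 to D29 (adjusted p = 0.0248), a call that leaving out any D21 or D25 library ended, with adjusted p up to 0.172. TNFSF10 read 0.57 and 0.39 (D21), 1.05 and 0.87 (D25) and 1.57 and 1.95 (D29). It was higher on each later day, by 1.28 ± 0.17 from D21 to D29 (SE, limma, adjusted p = 0.00169). These calls of TNFAIP2 and TNFSF10 from D21 to D29 held under each of the 14 alternatives tried.

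BIRC3 read 1.21 and 0.92 (D21), 1.46 and 1.16 (D25) and 1.82 and 2.23 (D29). Neighbouring days overlapped early, and D29 lay above D21, by 0.96 ± 0.20 (SE, limma, adjusted p = 0.0143), on 24 to 102 reads a library. FAS read 0.85 and 0.89 (D21), 1.12 and 1.24 (D25) and 1.49 and 1.78 (D29), a difference of 0.76 ± 0.15 from D21 (SE, limma, adjusted p = 0.0111). FAS rose beside ACTA2, its overlapping neighbour, which read 4.37 and 3.64 on D21 and 6.93 and 7.18 on D29. The call of BIRC3 was lost without the second D21 or the second D29 library, with adjusted p up to 0.112, and that of FAS without either D21 library or the second D29 library, with adjusted p up to 0.0755.

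TNFAIP8 read 2.79 and 2.90 (D21), 3.09 and 3.17 (D25) and 3.396 and 3.41 (D29). Its replicates were close and the days stood apart, with a rise of 0.56 ± 0.13 from D21 to D29 (SE, limma, adjusted p = 0.0190), and its call was lost without either D21 library or the second D29 library, with adjusted p up to 0.117. TRAF1 read 4.06 and 3.87 on D21 and 4.28 and 4.42 on D29, a difference of 0.38 ± 0.11 (SE, limma, adjusted p = 0.0435) that was called under 7 of 14 alternatives and lost when any library but the first D29 one was left out, with adjusted p up to 0.236. CFLAR, the caspase-8 inhibitor, went the other way, from 7.08 and 6.91 on D21 to 6.66 and 6.33 on D29. It fell by 0.50 ± 0.12 (SE, limma, adjusted p = 0.0211), and leaving out a D21 library or the second D29 library ended the call, with adjusted p up to 0.148.

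TNFRSF10B read 6.92 and 6.88 (D21), 6.62 and 6.56 (D25) and 6.63 and 6.61 (D29). It fell by 0.31 ± 0.06 to D25 (SE, limma, adjusted p = 0.0343) and stayed at that level, by 0.27 ± 0.06 to D29 (adjusted p = 0.0208). The call to D25 was lost without any of the D21 or D25 libraries, with adjusted p up to 0.214, and that to D29 without either D21 library or the second D29 library and by DESeq2, with adjusted p up to 0.138. BCL2L1 read 6.15 to 6.43 over all 6 libraries (adjusted p = 0.957 for D29 against D21, limma) and MLKL 0.32 to 0.71 on 6 to 17 reads (adjusted p = 0.830, limma). Neither was called on any day.

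Set 1, with 1 library a day and no test, gives the same genes side by side. TNFAIP2 read 4.03, 5.24 and 5.69 on D21, D25 and D29, BIRC3 1.60, 1.85 and 2.49, and FAS 1.16, 1.77 and 1.97. The larger step of TNFAIP2 was here the one from D21 to D25, 1.21, against 0.44 from D25 to D29, the reverse of set 2. TNFSF10 differed by 0.66 from D21 to D29, less than BIRC3 at 0.89, TRAF1 at 0.81 and FAS at 0.81. From D21 to D29, 5 of the 9 listed members (BIRC3, FAS, TNFAIP2, TNFSF10 and TRAF1) were more than 1.5-fold higher on the deposited scale, while 8.91% of all genes were. None of the 9 was 1.5-fold lower, against 5.63% of all genes. From D21 to D25, 2 members (FAS and TNFAIP2) were past the fold (6.23% of all genes higher, 3.45% lower), and from D25 to D29 only BIRC3 was (2.48% higher, 2.42% lower). CFLAR differed by -0.19 from D21 to D29. TNFRSF10B read 6.68, 6.86 and 6.78, so that it was not lower on the later days as in set 2.

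**Figure D2:**
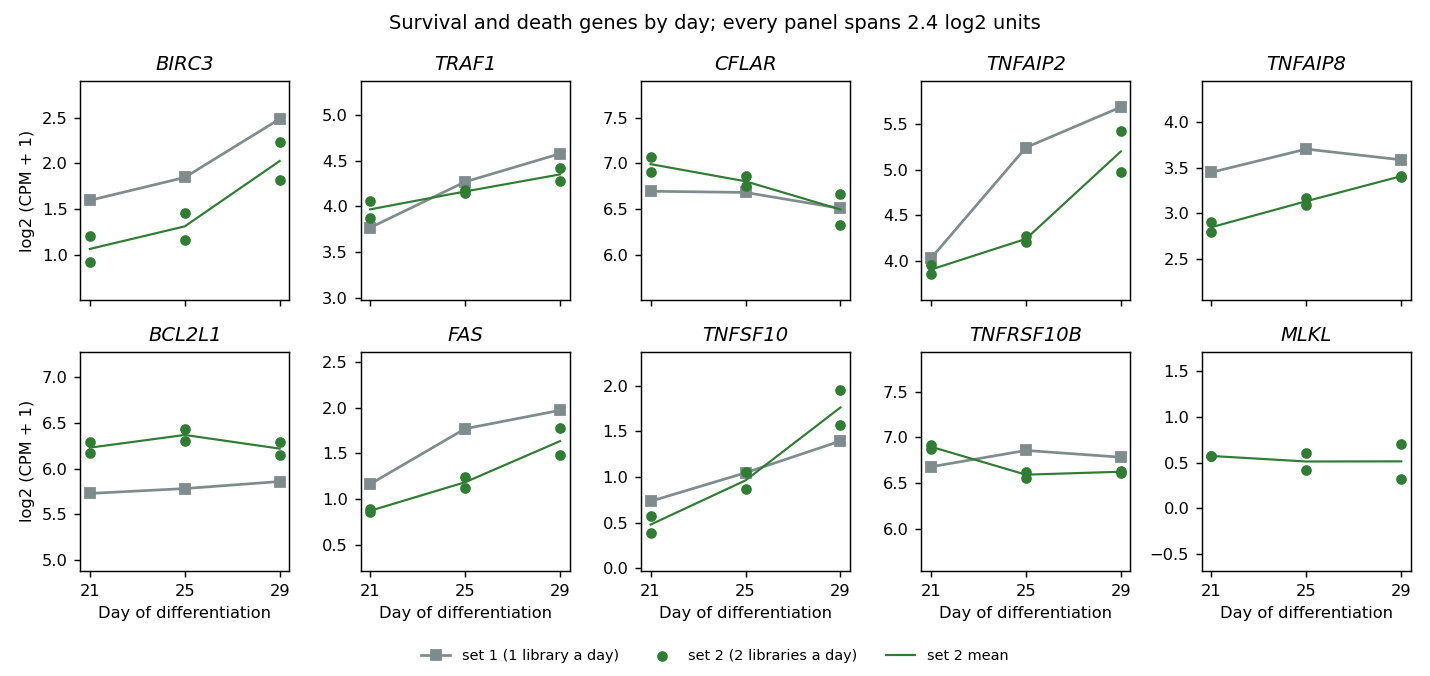
Deposited log2(CPM + 1) by day of differentiation for each gene, with set 1 as grey squares (1 library a day, joined) and set 2 as green points (2 libraries a day, line through the mean); the panels share a span but not a zero, there are no error bars, and the sets were normalized separately, so their levels are not compared. TNFAIP2 and TNFSF10 climb in both sets, CFLAR declines, TNFRSF10B drops after D21 in set 2 alone, and MLKL has no set 1 values.

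The make-up of the organoids moved with the same days. The 10 stromal markers summed to 5144 and 4522 CPM on D21 and to 15054 and 18844 CPM on D29 in set 2, and the 10 podocyte markers to 11665 and 12108 CPM on D21 and to 8168 and 3831 CPM on D29. The second D29 library had the lowest podocyte sum and the highest values of BIRC3, TNFAIP2, TNFSF10 and FAS. The part of this shift in the day differences was not tested. Over the pathway lists, 4 of 12 NF-κB feedback genes rose by D29, TNFAIP3 by 0.79 and RELB by 0.78, where 10.0% of all genes were called higher and 8.33% lower. Of the 11 adaptors and caspases 1 rose, CASP8 by 1.45 ± 0.16 (SE, limma, adjusted p = 0.000905), and 1 fell, CASP9 by 0.38 ± 0.09 (SE, limma, adjusted p = 0.0192). Of the 11 pro-death genes of the BCL2 family 3 rose and 1 fell, led by BOK at 0.88.

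In single cells the 10 genes could be placed by cell type. Cells with over 500 genes numbered 11906 in the VC library and 23160 in the TNFα library, and 74 barcodes occur in both libraries. Their median was 6359 and 2599 UMIs (unique molecular identifiers, counts of RNA molecules). The floors differ as well: the lowest cell had 613 UMIs in VC and 1514 in TNFα. Clusters were named from marker genes. The podocyte-like cluster of 1405 VC and 4591 TNFα cells held all 10 podocyte markers. The proximal tubule-like cluster of 1225 and 3451 cells held 9 of 10 proximal tubule markers and was led by MT1G, FXYD2 and HPN. In it 6 of 9 early nephron and 4 of 10 distal tubule markers were also high, so it may mix tubule types. The stromal-like cluster of 2615 and 4399 cells held 9 of 10 stromal markers, with 3 of 8 mural markers also high. The other named classes were proliferating-like, neuronal-like, neural progenitor or glial-like and muscle-like, and 5 clusters stayed unnamed. The libraries stand apart: when they were clustered without alignment, 14489 of the 23160 TNFα cells fell into 1 unnamed cluster. With 1 library for each condition there is no test of TNFα here, and intervals are exact 95% intervals that cover counting error only.

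In VC cells the members differed by class. TNFSF10 stood at 12.2 CPM (here the UMIs of a gene per 1e6 UMIs of the class; 10.7 to 14.0) in proximal tubule-like cells, against 0.211 (0.0436 to 0.618) in podocyte-like and 0.571 (0.247 to 1.13) in stromal-like cells. The highest of the other named classes was the proliferating-like one with 2.46 CPM. Of the 268 UMIs of this ligand in the VC library, 218 were in tubule-like cells. Its receptor TNFRSF10B was spread more widely, at 39.6 CPM (36.8 to 42.7) in tubule-like cells, 21.3 and 19.4 in podocyte-like and stromal-like cells, and 37.6 (22.3 to 59.4, on 18 UMIs) in an unnamed cluster led by GJA4, C2CD4B and SOX17. BCL2L1 stood at 31.2 CPM (28.7 to 33.9) in tubule-like cells and at 12.3 to 20.9 in the other named classes.

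CFLAR was at 38.7 CPM (35.6 to 42.1) in podocyte-like cells, the highest of the named classes, against 22.1 in tubule-like and 16.4 in stromal-like cells, and at 39.7 (23.9 to 61.9, on 19 UMIs) in the cluster led by GJA4. TNFAIP2 had the reverse order, with 16.9 CPM (14.8 to 19.1) in stromal-like, 6.96 in proximal tubule-like and 1.83 (1.196 to 2.68) in podocyte-like cells, and stood at 27.1 CPM (14.5 to 46.4, on 13 UMIs) in the cluster led by GJA4. TNFAIP8 was at 18.0 CPM in stromal-like cells, but its highest level, 57.4 (51.8 to 63.4), was in an unnamed cluster led by SPRR2F, NPY and PLP2 in which STAR, a gene of steroid hormone synthesis, was also high. BIRC3 rested on 63 UMIs in the whole VC library, of which 33 were in proximal tubule-like cells, and FAS, TRAF1 and MLKL on 93, 100 and 11 UMIs.

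With TNFα, members more than 1.5-fold higher numbered 4 in podocyte-like, 3 in tubule-like and 6 in stromal-like cells. This was among members with at least 50 UMIs over both libraries (7, 7 and 9 members). The minimum sums both libraries, so a member with few UMIs in VC met it only by being high with TNFα. In podocyte-like cells BIRC3 had 4 and 159 UMIs in VC and TNFα, and TNFSF10 3 and 48. In stromal-like cells BIRC3 had 4 and 165 and TNFSF10 8 and 56. Such members could not be counted without a rise. The podocyte-like 4 include TNFSF10, for which the part of RNA from other classes was not tested (values further on). There it falls under 50 UMIs at another resolution, without alignment or without the top doublet scores, leaving 3. The tubule-like 3 include TNFSF10 at 1.51, which becomes 1.459 when the median ratio of the class is set to 1, leaving 2. Of all genes that met this minimum, 14.7%, 11.2% and 7.94% were past this fold in those classes. Without alignment of the libraries these shares were smaller, 724 of 13319, 436 of 14021 and 704 of 13637 genes, and 3, 3 and 6 members passed. None was 1.5-fold lower, against 8.87%, 5.48% and 8.21% of all genes. The members' median ratio was 1.66, 1.35 and 1.83 at the minimum of 50 UMIs. That of all genes was 0.969, 1.04 and 0.967 at a minimum of 200 UMIs, so these medians are not compared. Among podocyte-like members with at least 200 UMIs, CFLAR, TNFAIP8 and BCL2L1 stood at 0.934, 0.989 and 0.885. TNFAIP2 and TNFRSF10B stood at 22.3 and 1.66 there. In proliferating-like cells 4 of 7 members were past the fold (6.54% of all genes higher, 4.80% lower), in neuronal-like cells 2 of 5 (12.0%, 9.81%), in neural progenitor or glial-like cells 3 of 5 (7.51%, 3.40%) and in muscle-like cells 4 of 5 (19.3%, 6.59%). TNFAIP2 and TNFRSF10B were among them in all 4 classes, and no member was past the fold downwards in these named classes. Here too some members met the minimum only through TNFα and could not be counted without a rise. They were BIRC3 (9 and 69 UMIs in VC and TNFα) and FAS (20 and 35) in proliferating-like cells. TNFAIP2 (6 and 60) in neural progenitor or glial-like and TNFAIP8 (8 and 52) in muscle-like cells were others. BCL2L1 was at 0.6645 (0.457 to 0.951) in the unnamed cluster led by SPOCK3, CYP26A1 and MYF6. In the unnamed cluster led by MSX1, DKK1 and C5orf58 it was at 0.652 (0.421 to 0.982). Both are past the fold downwards, and in the other unnamed clusters BCL2L1 was not past it.

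BIRC3 was the member with the largest ratios. It went from 0.282 CPM (0.0768 to 0.721) to 8.34 (7.09 to 9.74) in podocyte-like cells, from 0.286 (0.0779 to 0.732) to 10.3 (8.83 to 12.1) in stromal-like cells and from 1.85 (1.28 to 2.60) to 8.95 (7.52 to 10.6) in proximal tubule-like cells. The levels under TNFα were alike in the 3 classes, while the VC level was highest in proximal tubule-like cells. The ratio was therefore 29.6 (11.3 to 110) in podocyte-like and 36.2 (13.9 to 135) in stromal-like but 4.83 (3.28 to 7.29) in proximal tubule-like cells, where the VC levels of the first 2 classes rest on 4 UMIs each. In podocyte-like cells the ratio was 64.4 without alignment and 50.8 without the top doublet scores.

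TNFAIP2 rose from 1.83 to 40.9 CPM (38.0 to 43.8) in podocyte-like cells, a ratio of 22.3 (15.1 to 34.4). In stromal-like cells it went from 16.9 to 65.3 CPM, a ratio of 3.87 (3.36 to 4.48), and in proximal tubule-like cells from 6.96 to 26.5, a ratio of 3.81 (3.11 to 4.70). The podocyte-like ratio was 34.03 without the top doublet scores, and the tubule-like ratio 1.97 without alignment. The podocyte-like interval lies above the other ones, and the difference between classes has no test over libraries.

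TNFRSF10B was 1.66-fold (1.45 to 1.91) higher with TNFα in podocyte-like and 1.89-fold (1.63 to 2.19) in stromal-like cells, which brought both to 35.5 and 36.6 CPM. In proximal tubule-like cells, the highest at rest, it went from 39.6 to 44.5, a ratio of 1.12 (1.01 to 1.25). CFLAR, which did not change in bulk, was 1.83-fold (1.56 to 2.16) higher in stromal-like cells, from 16.4 to 30.1 CPM. Its ratio was 1.16 (1.01 to 1.34) in proximal tubule-like and 0.934 (0.834 to 1.05) in podocyte-like cells. BCL2L1 had ratios of 0.885 (0.754 to 1.04), 0.798 (0.699 to 0.910) and 1.19 (0.978 to 1.44) in podocyte-like, tubule-like and stromal-like cells.

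TNFSF10 went from 12.2 to 18.6 CPM in proximal tubule-like cells, a ratio of 1.51 (1.27 to 1.82), and from 0.571 to 3.51 in stromal-like cells, a ratio of 6.15 (2.92 to 14.9). In podocyte-like cells its 3 UMIs in VC and 48 in TNFα gave a ratio of 11.9 (3.84 to 59.8). In the unnamed cluster led by GJA4 it stood at 4.17 CPM (0.5055 to 15.1, on 2 UMIs) in VC. With TNFα it stood there at 9.365 CPM (6 to 13.9, on 24 UMIs). The cells of this cluster had a median of 945 UMIs in VC and 1757 in TNFα. The VC median lies below the lowest cell of the TNFα library, so the 2 levels come from unlike cells. FAS had 24 and 49 UMIs in stromal-like cells, a ratio of 1.79 (1.08 to 3.06), and 2 and 38 UMIs in podocyte-like cells, under the minimum of 50. TNFAIP8 had ratios from 0.899 to 1.35 and TRAF1 from 0.912 to 1.297 in the 3 classes. MLKL had at most 5 UMIs in any of these classes and library, so nothing can be read from it by class.

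**Figure D3:**
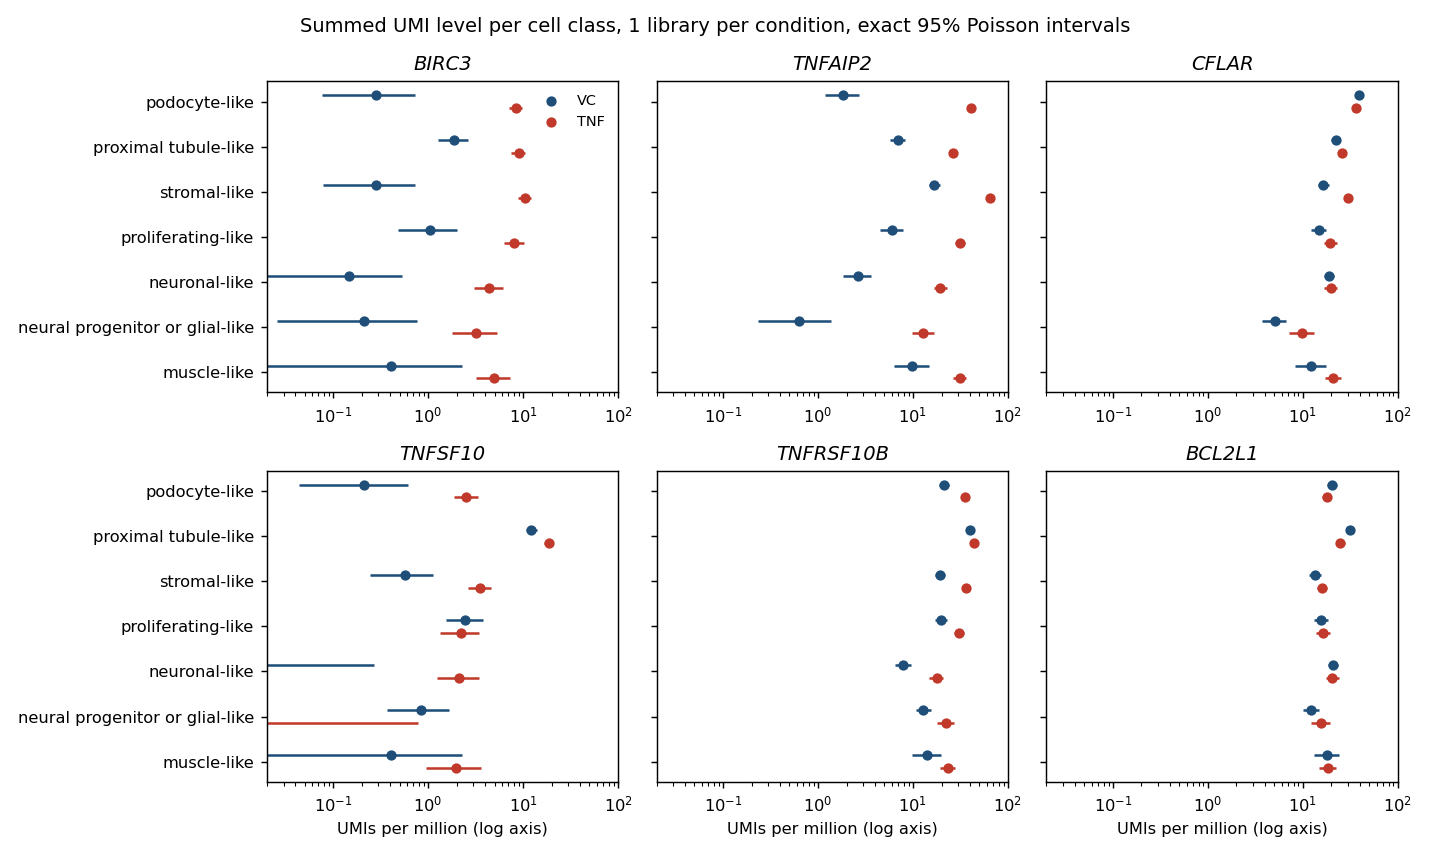
Summed CPM (log x axis) of 6 genes in 7 named cell classes (y axis), blue for the VC library and red for the TNFα library, 1 library each; lines are exact 95% Poisson intervals of counting error, cut at the left edge, and a line without a point marks a count of 0. Among the classes shown, TNFSF10 lies far to the right in proximal tubule-like cells alone, at 12.2 and 18.6. BIRC3 and TNFAIP2 lie further right with TNFα in each class shown. Unnamed clusters are not drawn.

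**Figure D4:**
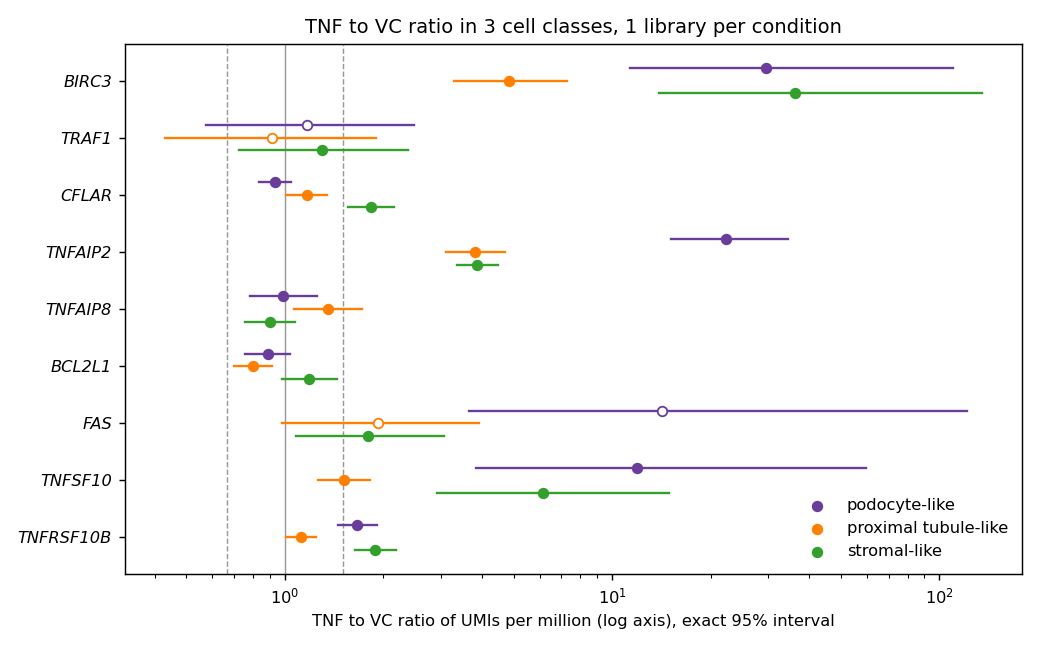
TNFα to VC ratio of CPM (log x axis) for 9 genes (y axis; MLKL has too few UMIs) in podocyte-like (purple), proximal tubule-like (orange) and stromal-like (green) cells, with exact 95% intervals of counting error; open points have fewer than 50 UMIs over both libraries, and dashed lines mark a fold of 1.5 either way. The ratios of BIRC3 are 29.6, 4.83 and 36.2, and the podocyte-like ratio of TNFAIP2, 22.3, stands apart from 3.81 and 3.87.

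Genes that mark 1 class were also counted in the others, at larger shares in the TNFα library. The podocyte gene NPHS1, in CPM, was in proximal tubule-like cells at 3.01% of its podocyte-like level in the VC library and at 14.1% in the TNFα library, and in stromal-like cells at 1.05% and 9.12%. The tubule genes AMN and HNF4A were in podocyte-like cells at 2.87% and 5.21% of their tubule-like level in VC and at 5.83% and 11.1% in TNFα. TNFSF10 in podocyte-like cells was at 1.73% of its tubule-like level in VC, below both genes, and at 13.6% in TNFα, above both. The part of RNA from other classes in this level was not tested, so it is not read as expression by podocyte-like cells. In stromal-like cells TNFSF10 was at 18.9% of the tubule-like level in TNFα, against 3.70% for AMN and 4.74% for HNF4A. BIRC3 and TNFAIP2 under TNFα ranged over the named classes from 31.1% and 19.7% of the stromal-like level, lowest in neural progenitor or glial-like cells. The stromal gene COL1A1 was there at 25.4% of its own stromal-like level, and at 20.6% in proximal tubule-like and 54.9% in proliferating-like cells. TNFAIP2 was below COL1A1 in neural progenitor or glial-like and in proliferating-like cells (47.6%), and above it in the other named classes. BIRC3 was above COL1A1 in each named class. The part of RNA from other cells in these levels was not tested. Free RNA, doublets and mixed clusters cannot be told apart here, and NPHS1 itself was lower in the podocyte-like cells of the TNFα library. AMN, HNF4A and COL1A1 were likewise lower in their own classes there, which alone raises the shares. In tubule-like cells AMN was at 159.5 CPM in VC and 88.1 in TNFα, and HNF4A at 27.1 and 19.9. In podocyte-like cells AMN was at 4.58 and 5.14 CPM, and HNF4A at 1.41 and 2.20.

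Over the whole single-cell libraries BIRC3 had a TNFα to VC ratio of 12.1 (9.31 to 15.9), TNFAIP2 5.36 (4.93 to 5.83), FAS 2.36 (1.84 to 3.06), TNFSF10 1.98 (1.70 to 2.31) and TNFRSF10B 1.502 (1.42 to 1.59). These 5 were past 1.5-fold, as were 5.40% of all genes higher and 8.75% lower. They are the genes that were past the fold at each time in bulk. TNFRSF10B was at 1.498 among cells of at least 1500 UMIs, leaving 4, and TRAF1 at 1.504 without the top doublet scores, making 6. The culture days, the cell make-up and the depth differ between the single-cell and bulk libraries. So does the material: per the methods, single cells came from whole wells and bulk RNA from isolated spheroids.

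Of the pathway lists, NF-κB feedback genes with at least 50 UMIs were past 1.5-fold higher in 10 of 12 for podocyte-like, 9 of 12 for tubule-like and 10 of 12 for stromal-like cells. Pro-death BCL2 genes were higher in 5 of 11, 4 of 10 and 3 of 10, with BOK, BBC3 (PUMA) and PMAIP1 in each of these classes, and BCL2A1 was the 1 of 4 survival genes past the fold in each. These 4 genes were chosen for naming after their values were seen. The counts of these lists are to be read against the 14.7%, 11.2% and 7.94% of all genes past the fold upwards in these classes.

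The genes most like each member called with TNFα in bulk, across the 14 sums of 7 named classes in 2 libraries, were found among 15819 genes with at least 200 UMIs, by Pearson's r of log2(CPM + 10). BIRC3 was nearest NFKBIE, an inhibitor of NF-κB (r = 0.95), IL3RA and NUAK2, and TNFAIP2 nearest VCAM1, an adhesion molecule (r = 0.96), CXCL10, a chemokine, and LARP6. TNFSF10 was nearest OGDHL (r = 0.97), ENPP3 and NEURL3, TNFRSF10B nearest EPHA2 (r = 0.97), TICAM1 and C1QTNF12, and BCL2L1 nearest MRPS36 (r = 0.97), CAMSAP3 and CNTD2. FAS was nearest OAS3, an interferon-induced gene (r = 0.89), BST1 and AC093677.2, and TRAF1 nearest ISOC1 (r = 0.91), CLDN11 and FUT4. The 14 points share 2 libraries and their depth, and for FAS and TRAF1 they rest on few UMIs, so these are descriptions only.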

How the data were processed

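Per the authors' methods and the labels, bulk reads were aligned with STAR 2.7.8a to GRCh38, counted per gene with HTSeq and normalized with limma's voom; no source used here gives the filter on genes. The deposited log2 values are log2(CPM + 1) with 0.5 added to each count: 100% of values came back as whole reads within 0.0001 (largest distance 2.21e-08). Libraries held 19073609 to 59246286 reads. The deposited single-cell UMI counts came from Cell Ranger, whose genome build is not clear here. Tables were normalized separately and tested separately, with no column of another sample.

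The 10 members, the gene lists and the tests were chosen with earlier results of these data known. Named genes are the members, at most 2 called genes of each list with the largest change, and 3 genes most like each member called with TNFα in bulk. Gene names were matched to 19905, 27240 and 21047 genes, and gene models were taken from GENCODE 44, which may differ from the annotation the authors used. Fits were limma 3.58.1 (eBayes with trend, Benjamini-Hochberg over all genes; set 2 with 1 mean a day, TNFα set with treatment and time), and edgeR 4.0.16 and DESeq2 1.42.0 on recovered reads as alternatives. The fits were tested on simulated data.

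Cells with over 500 genes were clustered (2000 variable genes a library without the members, lists and mitochondrial genes, 30 components aligned by Harmony, Leiden at resolution 0.25). Clusters were named where at least 3 markers at 20 CPM were above the other cells by a log2 fold of 1. A cluster stayed unnamed if its leading genes held more markers of another class, or if it was shallow and they held none of its own. The cluster led by MSX1, DKK1 and C5orf58 stayed unnamed by the first of these rules, with 7 proliferating and 5 neural progenitor or glial markers high. Scrublet marked 0 cells, so doublets were not removed. UMIs were summed per class and library; 95% intervals are exact Poisson or conditional binomial.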

Additional observations from a re-analysis of the deposited data

Results flagged for a closer look

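TNFRSF10B moved in opposite directions with days in the 2 untreated sets. In set 2 it differed by -0.31 (D25 against D21) and by -0.27 (D29 against D21) on the log2 scale, with no overlap of the libraries, and in set 1, with 1 library a day, by 0.18 and 0.11. The difference between the sets was not tested.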

How the results depend on the processing

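Of the 10 genes, 7 were called with TNFα in bulk and 5 without the time term. The fits without 1 of the 4 libraries also held no time term. They assume that the lone library of an arm varies like the others, so their calls are not counted here. For D29 against D21, 8 became 5 without a trend and 2 to 8 without 1 library, with 2 left without the second D21 or the second D29 library. For D25 against D21, 1 became 0 without a trend and 0 to 1 without 1 library. For D29 against D25, 1 became 0 without a trend or with only these days fitted, 2 by edgeR, with a mean of at least 1 or after median centring, and 0 to 4 without 1 library. The Org number as a replicate block gave 1, 1 and 8 calls for D25 against D21, D29 against D25 and D29 against D21, the same counts as without it. Libraries of 1 Org number deviated together only weakly (correlations of 0.14, 0.08 and 0.27 between days), so they share a number and are not taken as pairs. Genes called over the table moved under the block from 574 to 1118 for D29 against D25 in the replicate block fit. With TNFα they moved from 4061 to 2168 by DESeq2 and to 1310 without the time term. At a fold of 2, 3 in place of 6 members passed in stromal-like cells. Leaving out the top 10% of doublet scores was chosen after seeing the data, since the planned removal of called doublets had none to remove and was not run.

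No member called in a comparison changed direction there under the alternatives run. Members that were not called did. With TNFα, without 1 library and without the time term, CFLAR ranged from -0.0068 to 0.187 and TNFAIP8 from -0.0939 to 0.3205 (log2). Without 1 library MLKL ranged from -0.1491 to 0.028 for D25 against D21, from -0.1924 to 0.1956 for D29 against D25 and from -0.253 to 0.135 for D29 against D21. TNFRSF10B ranged from -0.0012 to 0.0659 for D29 against D25, and BCL2L1 from -0.0807 to 0.0602 for D29 against D21. For D29 against D25, MLKL was -0.0228 after median centring and -0.0832 without the added 1. For D29 against D21, BCL2L1 was 0.0168 by DESeq2 and 0.0136 by edgeR. The cause was not tested. Depth limits MLKL throughout, and BIRC3, FAS and TRAF1 in the VC cells.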
